A study of Mus musculus with 30 samples.

Results

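Wild-type mouse microglia treated with lipopolysaccharide (LPS, a cell wall component of Gram-negative bacteria) are compared here with untreated wild-type microglia. The libraries were chosen by genotype and treatment label, which gave 6 LPS and 5 control libraries, 11 of the 30 in the series. Microglia are the resident macrophages of the brain, and these were primary cultures from postnatal day 21 C57BL/6 mouse brain, profiled by ribosomal RNA-depleted total RNA sequencing. The study set wild-type cells beside Lrrk2-/- cells, and each genotype was left untreated or given LPS or α-synuclein fibrils. For context, 4 Lrrk2-/- LPS, 6 Lrrk2-/- control and 4 wild-type fibril libraries of the same strain and age were used. The labels used here state neither the LPS dose and exposure time nor how many animals went into a culture. Because nothing states that the replicates were separate cultures or animals, the p-values measure only the spread between these samples.

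LPS is sensed by a surface complex in which Cd14 passes it to Tlr4 and its partner Ly96. The adaptors Myd88 and Ticam1 then lead to activation of the NF-kB transcription factors, of MAP kinases that act on AP-1 factors, and of interferon regulatory factors. Many of the first genes induced encode cytokines and chemokines, and others encode inhibitors that end the signal.

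Gene counts per wild-type library ran from 14277344 to 33700695, with a median of 18062013. Levels are given as CPM (a gene's counts scaled to a fixed library total) after trimmed-mean scaling, and changes as log2 fold change (LPS over control) with its standard error (SE). A gene is called, or said to have risen or fallen, at a Benjamini-Hochberg adjusted p under 0.05 in edgeR's quasi-likelihood test over 14346 genes. Of 14 microglia and macrophage markers, 13 were measured and none was called (0 at an unadjusted p under 0.05 in edgeR, 0 in limma-voom and DESeq2), but Siglech had no read in any of the 11 libraries. Summed over the 13, the level was 7208 to 9839 CPM in control and 7676 to 9231 CPM in LPS libraries. Markers of other cells were present and uneven within both groups. Over the tested members of each list, astrocyte markers summed to 23.4 to 209 CPM in control and 16.6 to 274 CPM in LPS libraries. Oligodendrocyte markers summed to 104 to 209.9 CPM and 89.98 to 179.7 CPM. Fibroblast markers summed to 1.11 to 126 CPM and 0.29 to 93.5 CPM. No member of these 3 lists was called (0 at an unadjusted p under 0.05, 0 by limma-voom or DESeq2). With their mean level, and that of neuron markers, as a covariate the test called 2316 genes. On a principal component analysis the first component (39.8% of variance) did not separate the groups and the second (22.2%) did. Within their groups, control replicate 6 was highest on the first component, LPS replicate 6 highest and LPS replicate 1 lowest, and the same libraries held extremes of the other-cell markers. Counts without these 3 libraries, which were picked after seeing the data, are given where a list leads; control replicate 3, the lowest control on that component, was kept.

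LPS changed 2171 genes in wild-type microglia. Of all genes tested, 1019 rose (7.1%) and 1152 fell (8.03%). The rises were the larger changes, with 74 called genes at least 8-fold higher against 12 at least 8-fold lower. The LPS libraries all lay above all controls for 791 genes (5.51%) and all below for 865 genes (6.03%). Without the 3 libraries that stood apart, 907 genes rose and 915 fell. The split of the calls depended on the scaling: with library size alone, 593 genes rose and 3234 fell, and the median log2 fold change over all genes went from -0.02 to -0.23.

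Among receptor genes, Cd14 and Tlr2 rose and Tlr4 was slightly lower. Cd14, the co-receptor that hands LPS to Tlr4, was at 243, 295, 469, 445 and 617 CPM in control replicates 1, 2, 3, 5 and 6, and at 968 to 1576 CPM (median 1110.0) over the 6 LPS libraries. Every LPS library was above every control (log2 fold change 1.49 ± 0.18, adjusted p = 5.92e-07). Tlr4, which spans the membrane and starts the signal, stood at 233.9, 211, 213, 223 and 232 CPM in the same order of controls and at 159.6 to 202 CPM (median 183) with LPS. All LPS libraries lay below the controls, but the change was small (log2 fold change -0.30 ± 0.10, adjusted p = 0.0481). Leaving out any 1 of 9 libraries ended that call (each control and LPS replicates 1, 3, 5 and 6, adjusted p up to 0.12), as did leaving out the 3 libraries that stood apart (adjusted p = 0.38). Ly96, the soluble partner of Tlr4, had a log2 fold change of 0.24 ± 0.12 and was not called (adjusted p = 0.253). Tlr2, the receptor for bacterial lipoproteins, was the other member of the 13 tested receptor genes that was called higher, at 1.83.

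Among 25 adaptor and kinase genes of the pathway, 10 rose and 1 fell. Myd88, the adaptor shared by most Toll-like receptors, was at 34.3, 53.4, 45.0, 53.9 and 37.6 CPM in the controls and 70.0 to 79.9 CPM (median 73.5) with LPS. The groups did not overlap, and the change was 0.73 ± 0.20 (adjusted p = 0.0101). Without the 3 libraries that stood apart Myd88 was no longer called (adjusted p = 0.0756). Traf1, an adaptor of TNF receptors, had control values of 4.51, 4.61, 7.95, 5.52 and 1.34 CPM and LPS values of 56.8 to 78.5 CPM (median 65.8). Its log2 fold change of 3.76 ± 0.44 was the highest of the list. Ticam1, the adaptor that leads to interferon beta, changed by 1.21 ± 0.16. Tab1, a partner of the kinase Map3k7, went the other way, from 21.5, 22.7, 16.2, 19.3 and 20.1 CPM in controls to 10.2 to 14.2 CPM (median 12.1). It was lower in every LPS library (log2 fold change -0.71 ± 0.11, adjusted p = 2.02e-05).

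NF-kB genes rose as a group: 13 of 17 were called higher, none was called lower, and the list median was 1.27 against -0.02 over all genes. In each of the 13, all LPS libraries lay above all controls, and the same count was called without the 3 libraries that stood apart. The subunit genes spanned 0.70 (Rela) to 2.76 (Rel), and the genes of inhibitors and negative regulators spanned 1.27 (Tnip1) to 4.30 (Tnfaip3). Nfkbid, which encodes a nuclear IkB protein, had the smallest p of the list. It stood at 8.03, 11.8, 11.8, 14.3 and 8.58 CPM in the controls and 97.4 to 144 CPM (median 114) with LPS. The groups were far apart (log2 fold change 3.40 ± 0.16, adjusted p = 2.33e-14). Nfkbiz, a nuclear IkB protein that acts at a subset of NF-kB targets, was at 118, 114, 204, 88.2 and 27.6 CPM in controls and 1458 to 1619.9 CPM (median 1522) with LPS. All 6 LPS libraries lay within a narrow range, while control replicates 3 and 6 differed widely (3.79 ± 0.37). Tnfaip3, a ubiquitin-editing enzyme that ends NF-kB signalling, held that upper end (SE 0.21).

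Immediate early transcription factors showed a similar count, with 19 of 25 AP-1, Egr, Nr4a and Myc genes higher, 1 lower and a median of 1.53. Without the 3 libraries that stood apart the count was 19 higher and 1 lower. Maff, a small Maf protein that pairs with other basic leucine zipper factors, was at 3.19, 2.89, 9.38, 6.75 and 8.46 CPM in controls. With LPS it was at 120.4 to 229 CPM (median 137). No library overlapped (log2 fold change 4.65 ± 0.30, adjusted p = 7.00e-12). Egr1, a zinc finger factor induced within minutes by many signals, was at 3.37, 3.96, 11.8, 3.64 and 3.85 CPM in controls and 142 to 263 CPM (median 176) with LPS. Control replicate 3 was high for its group, yet far under the lowest LPS library (log2 fold change 5.16 ± 0.49, adjusted p = 5.79e-09). Jun, an AP-1 subunit, rose by 1.88 ± 0.19. Ier5l, an Ier family member, was the 1 gene of the list that fell (-1.75 ± 0.34, adjusted p = 4.35e-04).

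Csrnp1, Kdm6b and Errfi1, which lie outside these lists, were also strongly higher. Csrnp1, a nuclear protein first found as an Axin1 target, was at 4.95, 5.73, 8.87, 13.5 and 9.75 CPM in controls and 131 to 292 CPM (median 239.8) with LPS. The lowest LPS library was far above the highest control (log2 fold change 4.72 ± 0.32, adjusted p = 1.72e-11). Kdm6b, a demethylase of histone H3 lysine 27, stood at 0.895, 1.83, 5.44, 4.81 and 4.55 CPM in controls and 70.2 to 179.8 CPM (median 90.4) with LPS. LPS replicate 6 was high for its group and the groups were apart (log2 fold change 4.87 ± 0.43, adjusted p = 1.77e-09). Errfi1, an inhibitor of the EGF receptor that was singled out after its values were seen, had the smallest p of all genes. Its mean level was 22.5 ± 4.35 CPM (SD, n = 5) in control and 505 ± 104 CPM (SD, n = 6) in LPS libraries (log2 fold change 4.49 ± 0.16, adjusted p = 1.62e-17).

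**Figure D1:**
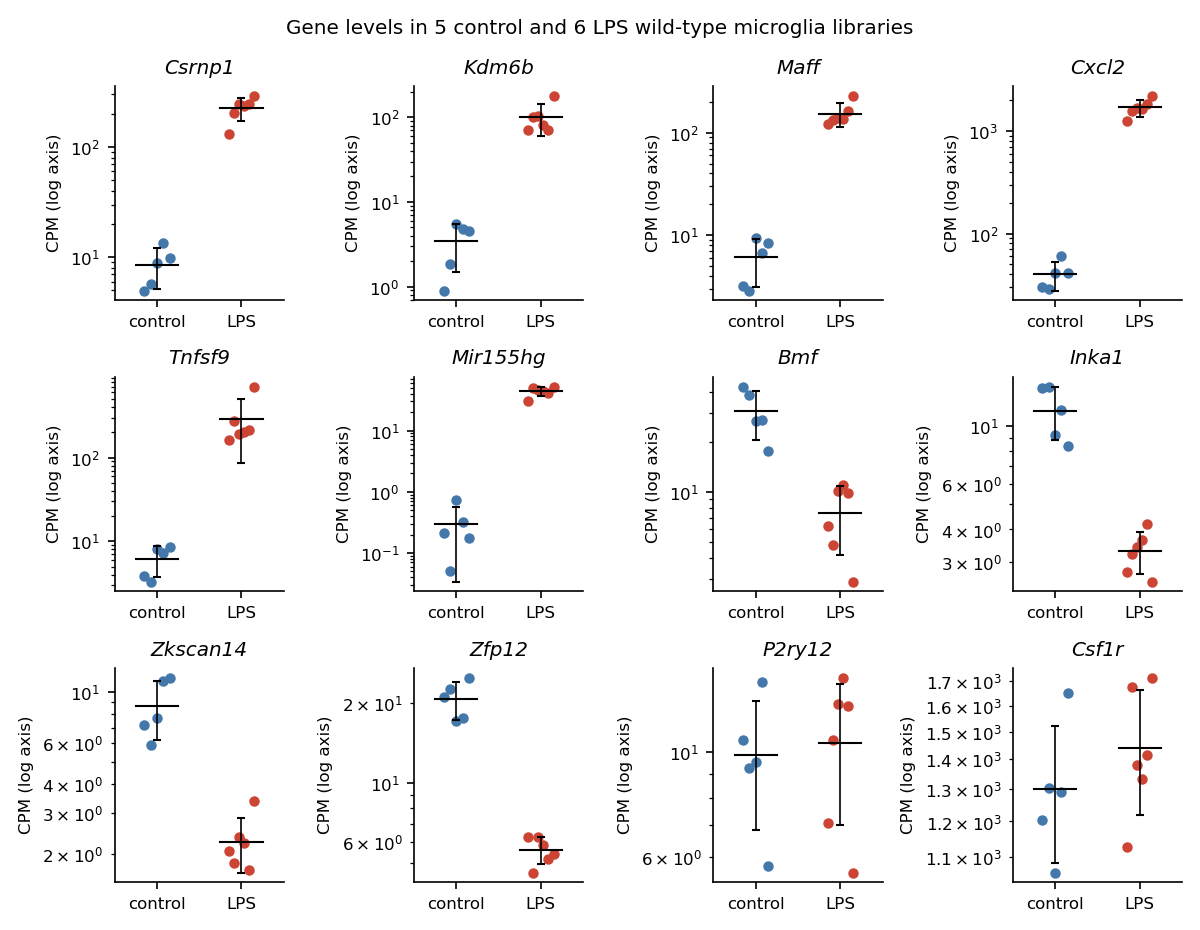
Level of 12 genes in each wild-type library, in CPM on a log axis, for 5 control (blue) and 6 LPS (red) libraries; lines are means and bars are the SD. LPS libraries lie above all controls for the 6 genes from Csrnp1 to Mir155hg and below them for Bmf, Inka1, Zkscan14 and Zfp12, while P2ry12 and Csf1r overlap.

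Promoter sequences were read for the genes of the NF-kB, chemokine, interleukin and immediate early lists with the smallest p, to show what lies before the start of genes that moved together. The table from RefSeq (GRCm38.p6) matched 10344 of 14346 tested genes, and the 250 bases before the start were searched on both strands. The motifs were the NF-kB consensus, AP-1 (TGANTCA), the cyclic AMP response element (CRE, TGACGTCA), STAT (TTCNNNGAA), the SRF CArG box and the core of the interferon-stimulated response element (ISRE). Of the 6 promoters read, 2 held the NF-kB consensus and 1 the CRE, and these 3 are printed 5′ to 3′ on the gene's strand with the matches in capitals.
Nfkbia, chr12:55492648-55492897, minus strand: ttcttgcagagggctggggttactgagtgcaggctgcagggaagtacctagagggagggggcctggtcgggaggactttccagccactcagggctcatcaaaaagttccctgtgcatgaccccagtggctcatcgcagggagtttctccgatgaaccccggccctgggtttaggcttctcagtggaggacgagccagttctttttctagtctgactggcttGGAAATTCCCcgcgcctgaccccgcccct
Cxcl2, chr5:90903649-90903898, plus strand: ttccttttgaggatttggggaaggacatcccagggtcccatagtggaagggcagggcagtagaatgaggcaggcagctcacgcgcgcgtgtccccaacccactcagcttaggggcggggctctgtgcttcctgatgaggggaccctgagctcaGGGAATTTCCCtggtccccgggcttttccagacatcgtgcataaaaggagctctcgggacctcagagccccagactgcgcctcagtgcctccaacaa
Maff, chr15:79347270-79347519, plus strand: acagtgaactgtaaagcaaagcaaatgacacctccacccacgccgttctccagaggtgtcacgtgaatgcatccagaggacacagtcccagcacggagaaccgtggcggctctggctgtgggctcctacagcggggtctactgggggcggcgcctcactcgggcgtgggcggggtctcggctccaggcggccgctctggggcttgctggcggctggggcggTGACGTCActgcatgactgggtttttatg
The Nfkbia match lay 29 to 20 bases before the start. The Cxcl2 capitals hold 2 overlapping matches that lay between 97 and 87 bases before it. The CRE of Maff lay 29 to 22 bases before the start. Nfkbid held 1 STAT match, 167 to 159 bases before the start. The promoters of Nfkbid, Tnfaip3 and Nfkbib held no match to the NF-kB, AP-1 or CRE letters in this window. Over all matched promoters, 4.69% held the NF-kB consensus. It was in 9.61% of 791 promoters of genes that rose, in 16.0% of 50 of those that rose at least 8-fold and in 2.80% of 893 of those that fell. AP-1 letters were in 4.25% of all promoters, 8.51% of those of genes that rose at least 2-fold and 2.02% of those of genes that fell. The ISRE core was in 3.00% of all promoters, 2.53% of those of genes that rose and 2.35% of those of genes that fell. For genes that rose at least 2-fold its share was 3.90%, and for at least 8-fold it was 2.0%. The CRE was in 2.72% of all promoters, 5.44% of those of genes that rose and 2.80% of those of genes that fell. A match is a description of letters and not a measured binding site.

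Chemokine and cytokine genes were among those with the highest changes. Of 15 CC chemokine and receptor genes, 8 rose from 0.87 (Ccl9) to 5.85 (Ccl22), none fell and the median was 1.86. Ccl22, which draws Ccr4-bearing lymphocytes, was close to the detection limit in controls at 0.0597, 0.0507, 0.114, 0.0587 and 0 CPM. It reached 2.69 to 4.63 CPM (median 3.53) with LPS. The groups did not overlap, at a low level (log2 fold change 5.85 ± 0.71, adjusted p = 4.28e-07). Ccl3, a monocyte chemoattractant, was already plain in controls at 143, 135, 129.7, 149 and 73.4 CPM and stood at 887 to 1262 CPM (median 938) with LPS. Its change was 2.97 ± 0.34 with no overlap. Of 12 CXC genes, 6 rose, among them Cxcl2, a neutrophil chemoattractant. Cxcl2 was at 30.02, 29.0, 41.5, 60.6 and 41.3 CPM in controls and 1252 to 2203 CPM (median 1661) with LPS. Controls stayed within a narrow band that no LPS library came near (log2 fold change 5.39 ± 0.39, adjusted p = 3.29e-11). Without the 3 libraries that stood apart, 8 higher and 0 lower CC and 5 higher and 0 lower CXC genes were called.

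Of 17 interleukin, colony-stimulating factor and related genes, 11 rose and none fell. Csf3, the neutrophil growth factor G-CSF, was at 0.0298, 0.0507, 0, 0.117 and 0 CPM in controls and 3.32 to 11.4 CPM (median 4.73) with LPS. The highest control was far under the lowest LPS library (log2 fold change 6.80 ± 0.71, adjusted p = 3.33e-08). Csf2, which encodes GM-CSF, had no read in any of the 5 controls, so no fold change is given for it. Lif and Osm, cytokines that signal through the shared receptor gp130, rose by 3.77 ± 0.59 and 1.95 ± 0.32. Without the 3 libraries that stood apart, 8 higher and 0 lower of this list were called. Il12b and Il23a, which encode subunits of interleukin-12 and interleukin-23, stayed under the count filter. Il12b had 2, 1, 0, 0 and 0 reads in the controls and 7, 12, 12, 2, 4 and 23 in LPS replicates 1 to 6. Il23a had 0, 0, 0, 0 and 2 reads and 10, 11, 10, 2, 4 and 15 reads. Both were higher in most LPS libraries by a few reads. With a filter of 10 counts in 4 libraries, 19 genes of this list were tested and 13 were called higher.

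Among 17 TNF superfamily and receptor genes, 6 rose and none fell. Tnfsf9, the ligand of the costimulatory receptor 4-1BB, was at 3.88, 3.30, 8.13, 7.25 and 8.58 CPM in controls and 164 to 702 CPM (median 206) with LPS. LPS replicate 6 was far above the other LPS libraries and the groups were apart (log2 fold change 5.55 ± 0.37, adjusted p = 1.45e-11). Fas, the death receptor, rose by 0.98 ± 0.18.

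Ifnb1, the interferon beta gene, was sharply higher. Of a list of 30 interferon-stimulated genes, none was called in edgeR's main fit and 1 by each of the other tools. Ifnb1 had 1 read over the 5 controls and 1573 over the 6 LPS libraries, a depth-scaled ratio of 1637 with a 95% counting interval of 293 to 64703. Of 13 interferon and interferon regulatory factor genes, 4 rose: Ifnb1, Irf1, Irf4 and the receptor gene Ifnar1 (0.37 ± 0.10). Irf1, a factor that NF-kB and interferon signals both induce, was at 82.0, 71.2, 68.0, 115 and 119 CPM in controls and 177 to 674 CPM (median 423) with LPS. The groups did not overlap (log2 fold change 2.25 ± 0.24, adjusted p = 3.71e-08), and Irf4, a factor of myeloid and lymphoid cells, changed by 2.27 ± 0.32. Of 30 interferon-stimulated genes, none was called in edgeR's test, and 2 had an unadjusted p under 0.05. Their median was 0.37. The gene with the smallest p was Ifih1, a sensor of double-stranded RNA, at 1.14 ± 0.41 (adjusted p = 0.0632), and limma-voom and DESeq2 each called this 1 gene. Gbp5, a guanylate-binding protein, followed at 1.73 ± 0.72 (adjusted p = 0.121). Fitted to only the groups compared, edgeR called both genes, and with the replicate number as a block it called Ifih1. Its other settings, and each fit with 1 wild-type library left out, called neither. Ifih1 and Gbp5 were the 2 genes of the list with all LPS libraries above all controls. The mean log2 CPM of the list was 5.04 to 6.54 in controls. With LPS it was 5.40 and 5.36 in replicates 1 and 6 and 6.45 to 6.86 in replicates 2 to 5, so the groups overlapped. Cxcl10 and Cxcl11, chemokine genes that interferons also induce, were counted in the CXC list and not here. They rose by 3.02 and 3.36, Cxcl11 at a low level (0.36 to 0.976 CPM with LPS).

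Of the inflammasome list 18.75% rose and of the prostaglandin, itaconate and nitric oxide list 31.8%, against 7.1% of all genes tested. Nlrp3, the sensor of the best known inflammasome, stood at 33.3, 36, 69.6, 71.9 and 76.4 CPM in controls and 991 to 1723 CPM (median 1082) with LPS. It was 1 of 3 of 16 inflammasome and pyroptosis genes that rose (log2 fold change 4.35 ± 0.31, adjusted p = 3.29e-11). The others were Mefv, the pyrin gene, at 3.53 ± 0.51 and Casp4, which binds LPS in the cytosol, at 1.06 ± 0.17. Among 22 prostaglandin, itaconate and nitric oxide genes, 7 rose and 1 fell. Ptgs2, the inducible cyclooxygenase, was at 14.4, 10.7, 25.8, 36.6 and 12.96 CPM in controls and 238 to 449 CPM (median 346) with LPS (log2 fold change 4.09 ± 0.49, adjusted p = 3.84e-07). Acod1, which makes itaconate from cis-aconitate, was at 72.9, 70.5, 113, 106 and 41.8 CPM in controls and 857 to 1307 CPM (median 918) with LPS (log2 fold change 3.65 ± 0.36, adjusted p = 1.58e-08). Both had groups well apart. Gch1, which supplies the cofactor of nitric oxide synthase, rose by 1.55 ± 0.19. Nos2, the inducible nitric oxide synthase, had 1, 0, 4, 3 and 0 reads in controls and 4, 9, 2, 1, 0 and 3 with LPS, too few to test. Ptges2, a prostaglandin E synthase, was the gene that fell (-0.43 ± 0.09).

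Feedback genes of the MAP kinase, mRNA decay and JAK-STAT systems rose in part. Of 17 dual-specificity phosphatase genes, 7 rose and 1, Dusp12, fell (-0.43 ± 0.12). Dusp2, a nuclear phosphatase of MAP kinases, was at 6.15, 6.24, 8.70, 9.89 and 3.39 CPM in controls and 119 to 186 CPM (median 174) with LPS. No library overlapped (log2 fold change 4.57 ± 0.43, adjusted p = 4.60e-09). Of 13 regulators of cytokine mRNA decay, 6 rose and none fell. Zc3h12c, a relative of the endonuclease regnase-1, stood at 93.3, 110.4, 142, 75.0 and 77.9 CPM in controls and 489.6 to 620.0 CPM (median 544) with LPS. It lay apart in all libraries (log2 fold change 2.48 ± 0.14, adjusted p = 8.15e-13), and Zc3h12a, which encodes regnase-1 itself, rose by 2.32 ± 0.26. Of 25 SOCS and JAK-STAT genes, 7 rose and 1 fell. The serine kinase genes Pim1 and Pim3 rose by 2.68 ± 0.31 and 1.77 ± 0.30. Socs6 fell by 0.37 on the log2 scale (adjusted p = 0.0275), a call that ended when control replicate 1, 5 or 6 or LPS replicate 1 or 3 was left out (adjusted p up to 0.113).

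Genes of the Bcl2 family and survival list rose more often than they fell, with 11 of 21 higher and 2 lower. Gadd45b, a stress protein that restrains JNK signalling, rose by 3.02 ± 0.30, and Cflar, an inhibitor of caspase-8, rose by 2.29 ± 0.18. BH3-only proteins promote cell death, and their genes were called in both directions. Bcl2l11 rose by 1.29 (100 to 125 CPM in controls, 228 to 348 CPM with LPS). Pmaip1 rose by 0.87 (22.9 to 33.9 CPM in controls, 36.2 to 66.0 CPM with LPS). Bmf, another BH3-only gene, fell. It was at 42.9, 38.4, 26.7, 27.2 and 17.7 CPM in controls and 2.88 to 11.1 CPM (median 8.04) with LPS. All LPS libraries were below all controls (log2 fold change -2.03 ± 0.32, adjusted p = 2.29e-05). Bbc3, which encodes the BH3-only protein PUMA, was the second member that fell, at -0.60 ± 0.20, and that call ended when control replicate 5 or 6 or LPS replicate 1, 2, 3 or 6 was left out (adjusted p up to 0.239). The Bcl2a1 genes are near-identical copies, so counts of Bcl2a1a, Bcl2a1b and Bcl2a1d could be split between them.

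Of 22 homeostatic microglia genes 2 rose (9.09%), a share near the 7.1% of all genes tested. They were Gpr84 (3.07 ± 0.35), a receptor for medium-chain fatty acids, and Rhob (1.19 ± 0.26), a small GTPase. None fell and the median was 0.09. P2ry12, the ADP receptor that guides microglial processes, was at 10.6, 9.28, 9.56, 14.1 and 5.72 CPM in controls and 5.54 to 14.4 CPM (median 11.6) with LPS. The groups overlapped (log2 fold change 0.09 ± 0.33, adjusted p = 0.937). Tmem119, a membrane protein used as a microglial marker, was at 10.5, 9.84, 7.90, 10.7 and 5.08 CPM in controls and 3.52 to 8.91 CPM (median 6.81) with LPS. It was not called (-0.47 ± 0.31, adjusted p = 0.408). Csf1r, the receptor on which microglia depend for survival, was at 1205, 1303, 1057, 1291 and 1652 CPM in controls and 1126 to 1714 CPM (median 1396) with LPS. Its ranges overlapped too (0.15 ± 0.14). Cx3cr1, the fractalkine receptor, changed by 0.10 ± 0.28 and was not called. In bulk RNA, fewer cells of a type and less RNA per cell cannot be told apart.

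Of 30 macrophage lineage factors, 4 rose (13.3%) and 1 fell (3.33%), against 7.1% and 8.03% of all genes tested. Lyl1, a basic helix-loop-helix factor of blood cells, was at 40.5, 37.6, 29.5, 40.3 and 29.0 CPM in controls and 15.7 to 21.9 CPM (median 19.1) with LPS. It was lower in every LPS library (log2 fold change -0.89 ± 0.13, adjusted p = 9.20e-06). Tfec, a MiT family factor, rose by 1.31 ± 0.24 and Ets2, an Ets factor, by 1.23 ± 0.19. The other rises were Runx1, a factor of blood cell development (0.74 ± 0.21), and Cebpb, a factor of myeloid activation (1.10 ± 0.35). The Runx1 call ended without control replicate 1 (adjusted p = 0.068), and that of Cebpb without control replicate 1, 2 or 3 or LPS replicate 4, 5 or 6 (adjusted p up to 0.103). Of 22 disease-associated microglia genes only Ch25h, which makes 25-hydroxycholesterol, was called (2.96 ± 0.34). That share of 4.55% was under the 7.1% of all genes that rose. Adora2b, an adenosine receptor, was the strongest of 3 purinergic genes of 15 (20%) that rose. It was at 2.81, 3.30, 6.01, 8.74 and 7.70 CPM in controls and 29.9 to 47.6 CPM (median 35.7) with LPS, with the groups apart (log2 fold change 2.70 ± 0.27, adjusted p = 1.76e-08). P2ry2, an ATP and UTP receptor, changed by 1.40 ± 0.21 and Adora2a by 1.85 ± 0.59. The call of Adora2a, another adenosine receptor, ended without control replicate 1, 2 or 6 or LPS replicate 1 or 2 (adjusted p up to 0.0738).

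Genes of adhesion, matrix breakdown and antigen presentation were called upward only. Of 17 adhesion genes 5 rose, led by Itga5, the fibronectin receptor subunit (2.16 ± 0.18), and Icam1, a ligand of leukocyte integrins (1.82 ± 0.21). Cd44 changed by 0.78 ± 0.16, and the integrin genes Itgav and Itgb1 by 0.67 ± 0.22 and 0.19 ± 0.05. The Itgav call ended without control replicate 1, 5 or 6 or LPS replicate 1, 3, 4 or 6 (adjusted p up to 0.111), and the Itgb1 call without control replicate 1 or 2 or LPS replicate 6 (adjusted p up to 0.0756). With library-size scaling, Itgb1 was at -0.022 and not called. Of 21 matrix protease and inhibitor genes 8 rose, led by Serpinb2, an inhibitor of plasminogen activators (2.77 ± 0.65), and Plaur, the urokinase receptor (2.56 ± 0.28). Of 23 antigen presentation and costimulation genes 5 rose. Cd83, an activation marker, changed by 2.37 ± 0.36, Cd40, the receptor for T cell help, by 1.93 ± 0.40 and Icosl by 1.33 ± 0.36. The others were Cd74, the MHC class II invariant chain (1.44), and Cd80, a ligand of Cd28 (1.09). The Cd74 call ended without control replicate 1 or LPS replicate 2 (adjusted p up to 0.078), and the Cd80 call without control replicate 2 (adjusted p = 0.0634). The call of Icosl, a ligand of the T cell receptor Icos, ended without the 3 libraries that stood apart (adjusted p = 0.131). Clec4e, a C-type lectin that binds mycobacterial lipid, rose by 3.18 ± 0.30, 1 of 3 calls among 19 scavenger and Fc receptor genes with its relative Clec4d (0.85 ± 0.21) and Olr1, a receptor for oxidised lipoprotein.

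None of 30 nuclear genes of oxidative phosphorylation was called in edgeR's test (1 at an unadjusted p under 0.05, and 0 called by limma-voom or DESeq2), and their median was -0.05. With library-size scaling, 18 of the 30 were called lower. Of 17 cholesterol synthesis genes none was called (1 at an unadjusted p under 0.05, 0 by the other tools), and of 27 glycolysis, glucose uptake and hypoxia genes 5 rose (18.5%, against 7.1% of all genes tested) and 1 fell. Slc2a1, the glucose transporter Glut1, rose by 1.08 ± 0.20, its relative Slc2a6 by 1.37 ± 0.30 and Adm, the peptide hormone adrenomedullin, by 2.17 ± 0.42. The other calls were smaller and less stable: Hk2, a hexokinase (0.58 ± 0.16), ended without LPS replicate 6 (adjusted p = 0.0537). Hif1a, the hypoxia factor (0.24 ± 0.08), ended without control replicate 1, 2 or 5 or LPS replicate 1, 2 or 5 (adjusted p up to 0.122). Pfkfb4, a regulator of glycolytic flux that was lower (-0.37 ± 0.12), ended without control replicate 1, 2 or 5 or LPS replicate 2 or 6 (adjusted p up to 0.119). Of 36 cell cycle genes 3 rose (8.33%) and 1 fell, namely Plk2 and Plk3, polo-like kinases, and Cdkn1a, the p21 inhibitor, against Cdkn1b, the p27 inhibitor (-0.62 ± 0.10).

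**Figure D2:**
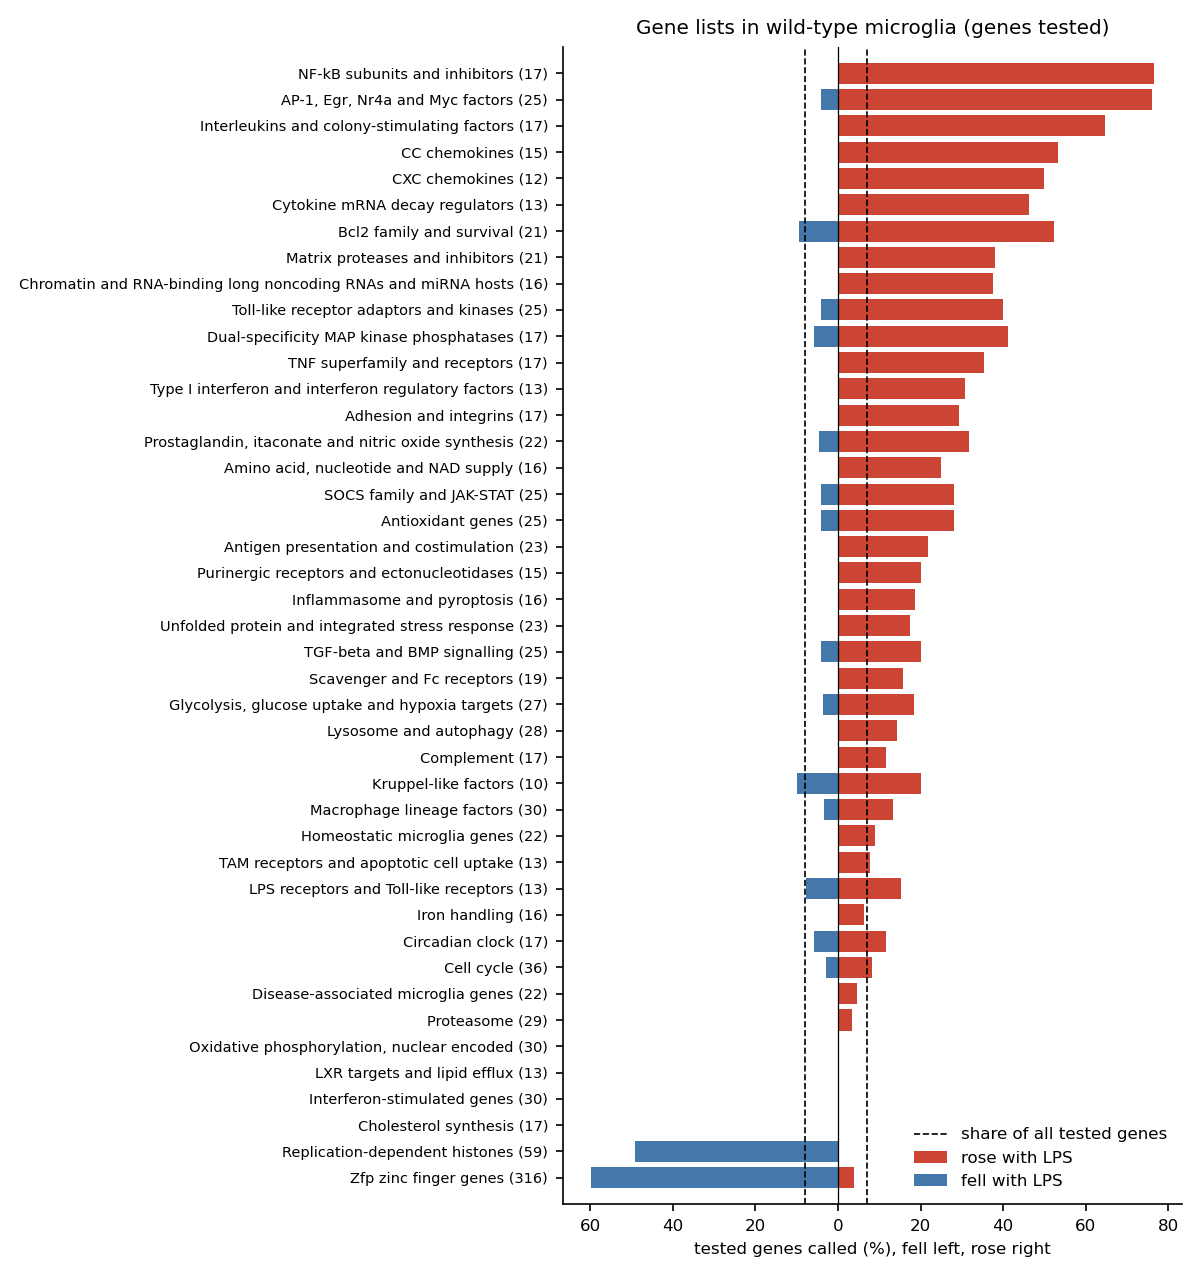
Share of tested genes called in each gene list, in percent, with rises to the right (red) and falls to the left (blue); the number tested is beside each name and dashed lines are the shares of all tested genes, 7.1% and 8.03%. NF-kB genes and immediate early factors extend farthest right, and the histone and Zfp lists farthest left.

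The genes that fell held many Zfp zinc finger genes, most of which encode DNA-binding proteins. Of 316 tested Zfp genes, 189 fell and 12 rose, with a median of -0.66. They made up 16.4% of all genes that fell, and among the 14030 other genes 963 (6.86%) fell. For 162 of the 189, every LPS library was below every control. Without the 3 libraries that stood apart, 174 fell and 14 rose. Zfp128 was at 6.42, 6.39, 3.78, 3.26 and 4.73 CPM in controls and 0.306 to 0.750 CPM (median 0.489) with LPS. Its groups were far apart at a low level (log2 fold change -3.23 ± 0.23, adjusted p = 3.17e-11). Zfp60 was at 14.5, 13.6, 14.4, 10.6 and 14.7 CPM in controls and 2.23 to 5.00 CPM (median 3.27) with LPS. Control replicate 5 was low for its group yet above every LPS library (log2 fold change -1.99 ± 0.16, adjusted p = 3.82e-10). Zfp12 was at 21.0, 22.6, 17.1, 17.5 and 24.9 CPM in controls and 4.58 to 6.25 CPM (median 5.61) with LPS, with no overlap (log2 fold change -1.89 ± 0.13, adjusted p = 1.72e-11). Zkscan14, a zinc finger gene of the SCAN family outside the Zfp list, was at 7.16, 5.88, 7.72, 11.2 and 11.5 CPM in controls and 1.704 to 3.38 CPM (median 2.15) with LPS (log2 fold change -1.95 ± 0.24, adjusted p = 6.56e-07).

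The Zfp genes that fell were spread over the genome and differed in number by chromosome. On chromosome 7, which holds large zinc finger clusters, 56 of 81 tested Zfp genes fell, and on chromosome 13 the count was 22 of 27. On chromosome 17 it was 26 of 40, and on chromosome 4 it was 4 of 18. Clustered zinc finger genes can be close copies of each other, so the counts of single members could be split. The most-counted transcripts of the 189 had a median GC content of 43.7% and 4 exons, against 47.1% and 5 exons for the 115 Zfp genes not called. The part of base composition in the change was not tested. STAT letters were in 18.4% of 163 promoters of Zfp genes that fell, 16.5% of 266 promoters of all tested Zfp genes and 5.86% of all promoters. Not all Zfp genes fell: Zfp263 was at 142, 132, 146, 143 and 142 CPM in controls and 351 to 459.5 CPM (median 402) with LPS. Controls agreed closely and every LPS library was higher (log2 fold change 1.53 ± 0.11, adjusted p = 3.47e-11). Zfp36, also among those that rose, encodes an RNA-binding protein rather than a factor of the clustered kind.

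**Figure D3:**
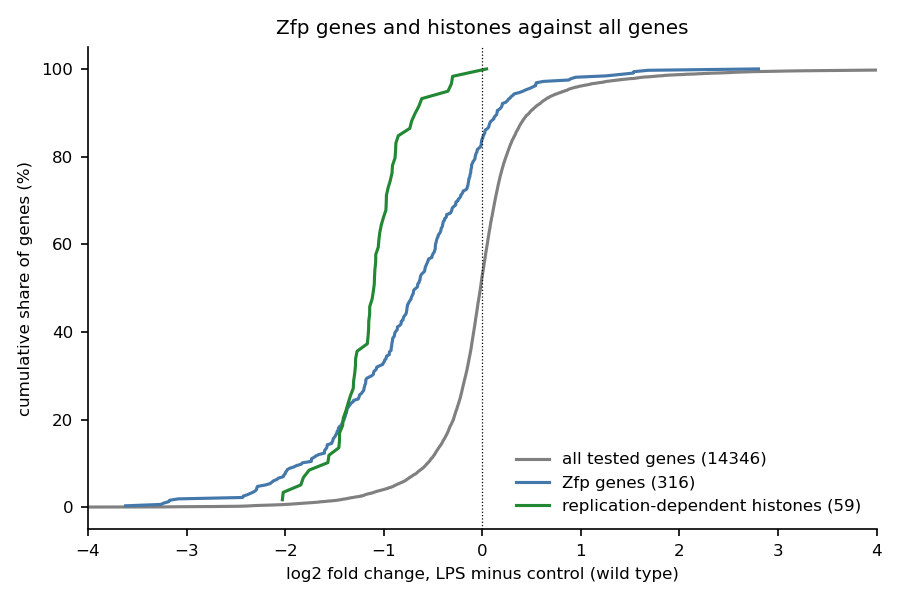
Cumulative share of genes, in percent, by log2 fold change with LPS in wild-type microglia, for all 14346 tested genes (grey), 316 Zfp genes (blue) and 59 replication-dependent histone genes (green). The Zfp and histone curves lie left of that of all genes, with medians of -0.66 and -1.10 against -0.02.

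Replication-dependent histone genes, which package new DNA in dividing cells, also fell: 29 of 59 were called lower, none higher. Of the 29, 17 had all LPS libraries below all controls, and 22 were called without the 3 libraries that stood apart. Hist2h4 was at 19.8, 36.5, 15.8, 21.0 and 12.02 CPM in controls and 4.48 to 7.82 CPM (median 5.89) with LPS. Control replicate 2 was high and no library overlapped (log2 fold change -1.76 ± 0.33, adjusted p = 2.57e-04). In Lrrk2-/- cells 3 of the 59 were called lower, where 7.35% of all genes tested were. The histone median there was -0.47, against -0.04 over all genes. No histone gene was called for a difference between genotypes. These genes are near copies, and their mRNAs largely lack poly(A) tails, which the total RNA libraries do not require. Among other genes, Inka1, an inhibitor of Pak4, was at 13.97, 14.1, 9.21, 11.5 and 8.41 CPM in controls and 2.52 to 4.19 CPM (median 3.33) with LPS. It was lower in every LPS library (log2 fold change -1.79 ± 0.19, adjusted p = 6.59e-08).

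Genes with large changes in either direction were short. The median span of all tested genes was 18.5 kb with 8 exons in the most-counted transcript. Genes that rose at least 8-fold had a median span of 5.30 kb and 4 exons. At a 2-fold cut, genes that rose had 9.35 kb and 4 exons, and those that fell had 7.60 kb and 3 exons. All genes that fell had 10.8 kb and 5 exons. The whole set that rose did not share this, with a median of 21.3 kb and 7 exons.

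Host transcripts of microRNAs, small RNAs that repress mRNAs paired to their seed, were among the noncoding genes that rose. Of 16 tested long noncoding RNA and microRNA host genes 6 rose and none fell. Mir155hg, the host of miR-155, was at 0.209, 0.0507, 0.744, 0.323 and 0.175 CPM in controls and 30.3 to 51.8 CPM (median 44.8) with LPS. Its rise was among the highest of all genes (log2 fold change 7.21 ± 0.66, adjusted p = 3.04e-09). Mir22hg was at 29.2, 28.4, 34.3, 41.4 and 48.7 CPM in controls and 89.4 to 125 CPM (median 124) with LPS, with no overlap (log2 fold change 1.69 ± 0.12, adjusted p = 1.77e-11). Mir17hg, which carries the miR-17 to miR-92 cluster, was at 14.1, 11.8, 16.5, 14.7 and 13.8 CPM in controls and 23.5 to 36.2 CPM (median 27.6) with LPS, again apart (log2 fold change 1.01 ± 0.18, adjusted p = 1.68e-04). Mature microRNAs were not measured. Mir17hg also carries miR-18a-5p and miR-92a-3p, which are not shown. The RefSeq (GRCm38.p6) sequences of a selection of arms from these hosts are given 5′ to 3′, with the seed (bases 2 to 8) in capitals.
miR-155-5p: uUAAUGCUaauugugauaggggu
miR-22-3p: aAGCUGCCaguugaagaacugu
miR-17-5p: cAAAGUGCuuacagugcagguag
miR-20a-5p: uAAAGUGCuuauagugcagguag
miR-19a-3p: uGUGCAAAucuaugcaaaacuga
miR-19b-3p: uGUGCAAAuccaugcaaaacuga
The Mir17hg pairs miR-17-5p with miR-20a-5p, and miR-19a-3p with miR-19b-3p, each share a seed. The seeds of miR-155-5p and miR-22-3p are shared with no other sequence shown.

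The deposited table holds transcripts, so shifts between the transcripts of a gene could be tested apart from its level. With LPS, 228 of 7267 genes with several transcripts (3.14%) changed in transcript use (edgeR's diffSpliceDGE, adjusted p under 0.05). Of 30164 transcripts, 28 took a higher share of their gene (0.0928%) and 70 a lower one (0.232%). Retained-intron transcripts, which keep intron sequence and are mostly not translated, were 11 and 22 of these, and 7347 of the 30164 tested. Each share below is given with the exact two-sided permutation test over libraries, whose smallest p over 462 splits is 0.00216. The 12 such p-values were adjusted together, and since the genes were chosen by their shift in these libraries they describe the separation of the groups.

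Of the counts of Cd44, the hyaluronan receptor gene, the retained-intron transcript Cd44-209 held 3.50%, 3.90%, 5.06%, 4.403% and 2.64% in controls and 9.33% to 12.1% with LPS. The mean went from 3.90% ± 0.915 to 10.8% ± 1.11 (SD, exact p = 0.00216, adjusted p = 0.00259). Prag1, a pseudokinase scaffold, had 5.01%, 12.8%, 8.72%, 8.98% and 7.26% in controls and 32.1% to 49.5% with LPS in the retained-intron transcript Prag1-203. The mean went from 8.56% ± 2.86 to 41.0% ± 6.35 (SD, exact p = 0.00216, adjusted p = 0.00259). Rapgef2, an exchange factor of Rap1, had 6.79%, 7.31%, 7.94%, 6.97% and 4.14% in controls and 17.8% to 26.9% with LPS in the retained-intron transcript Rapgef2-204. The mean went from 6.63% ± 1.46 to 21.9% ± 3.63 (SD, exact p = 0.00216, adjusted p = 0.00259). In all 3 genes the LPS libraries lay above every control. Clic4-202, a retained-intron transcript of the chloride channel family gene Clic4, rose from 0.556% ± 0.176 to 2.68% ± 0.868 (SD, n = 5 and 6, exact p = 0.00216, adjusted p = 0.00259).

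Other retained-intron transcripts lost share. Trem2, the lipid receptor of microglia, which was chosen after its values were seen, had 14.97%, 16.8%, 12.4%, 10.6% and 7.47% in controls and 2.74% to 3.58% with LPS in Trem2-203. The mean went from 12.4% ± 3.65 to 3.16% ± 0.336 (SD, exact p = 0.00216, adjusted p = 0.00259). All LPS libraries lay below all controls, while the gene's total level was not called (-0.14 ± 0.23, adjusted p = 0.828). Camk1, a calmodulin-dependent kinase, had 4.43%, 4.96%, 5.22%, 7.16% and 4.00% in controls and 0.678% to 1.71% with LPS in Camk1-205. The mean went from 5.15% ± 1.22 to 0.989% ± 0.425 (SD, exact p = 0.00216, adjusted p = 0.00259). Atp13a2, a lysosomal polyamine transporter linked to parkinsonism, went from 2.05% ± 0.569 to 0.0646% ± 0.0839 in Atp13a2-202 (SD, n = 5 and 6, exact p = 0.00216, adjusted p = 0.00259). Abhd12, a lysophosphatidylserine lipase, went from 1.83% ± 0.682 to 0.1499% ± 0.0842 in the noncoding Abhd12-203 with the same p. Cflar was called by the test across transcripts, but its Cflar-212 held under 2% of counts in every library and the difference did not pass the exact test (p = 0.0606). The calls of all 8 genes named by rule held in every setting run, with an adjusted p of at most 5.92e-05.

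**Figure D4:**
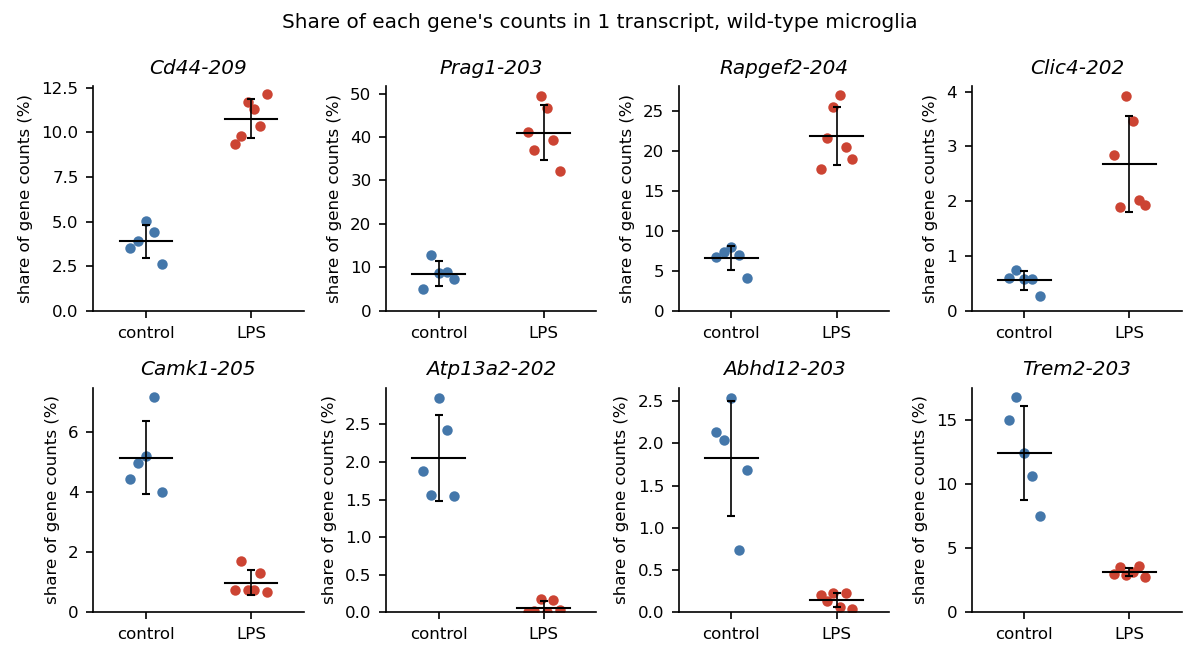
Share of a gene's counts in 1 transcript, in percent, in 5 control (blue) and 6 LPS (red) wild-type libraries for 8 genes; lines are means and bars are the SD. LPS libraries lie above all controls for Cd44, Prag1, Rapgef2 and Clic4 and below them for Camk1, Atp13a2, Abhd12 and Trem2.

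The share in retained-intron transcripts was also summed by gene, over 2817 genes with at least 200 counts and 10 retained-intron counts on average. Its median was 6.28% in control and 5.22% in LPS libraries. All LPS libraries lay above all controls for 65 genes (2.31%) and below for 148 (5.25%). Among 276 genes whose level rose, the median share went from 5.21% to 6.48%, with 31 (11.2%) above and 4 below. Among 202 genes whose level fell it went from 12.9% to 8.58%, with none above and 19 (9.41%) below. The gene classes come from the same libraries and no label used here states how the authors assigned reads to transcripts, so these shares are a description.

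The same treatment in Lrrk2-/- microglia, libraries that share no sample with the wild type, gave 912 higher (6.36%) and 1055 lower genes (7.35%). Lrrk2, which encodes the kinase that is deleted, was at 10.3 to 16.7 CPM in wild-type controls, 11.4 to 15.9 CPM in wild-type LPS, 1.96 to 4.35 CPM in Lrrk2-/- controls and 2.22 to 4.68 CPM in Lrrk2-/- LPS libraries. Each knockout library was below each wild-type library. Lrrk2 changed by 0.18 ± 0.20 with LPS in wild-type cells and was not called (adjusted p = 0.707). The genotypes called 1374 genes in the same direction, 63.3% of the wild-type and 69.85% of the knockout calls, and none in opposite directions. The test of the difference between genotypes called no gene (0%). At an unadjusted p under 0.05 that test held 600 of 14346 genes with edgeR, 683 of 14346 with limma-voom and 815 of 25887 with DESeq2. Chance alone gives about 1 gene in 20 at that threshold. The other tools also called none. Mir155hg changed by 5.52 in knockout against 7.21 in wild-type cells, Kdm6b by 4.30 against 4.87 and Zfp12 by -1.81 against -1.89. Myd88 was at -0.09 in knockout against 0.73, and that difference was not called (adjusted p = 0.992). Of the 189 Zfp genes that fell in wild-type cells, 172 fell in the knockout too.

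**Figure D5:**
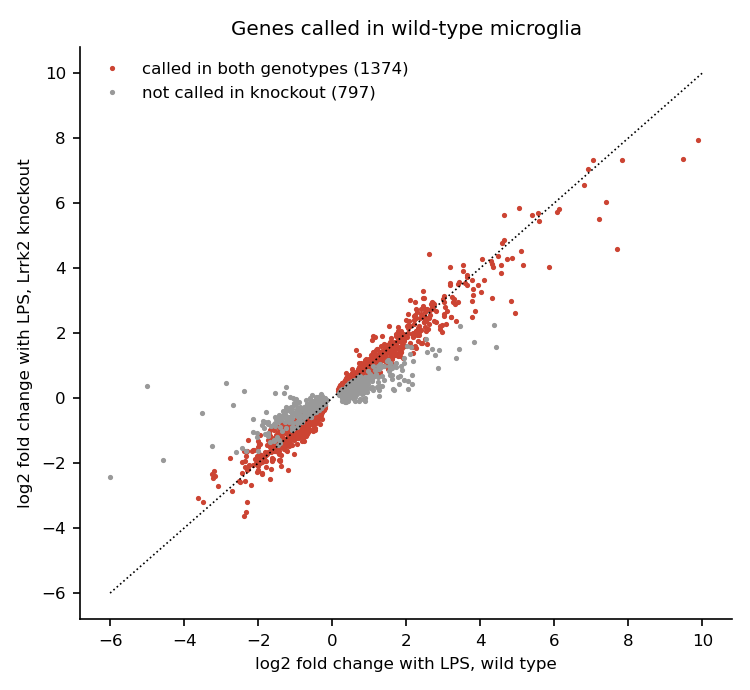
Log2 fold change with LPS in wild-type (horizontal) and Lrrk2-/- microglia (vertical) for the 2171 genes called in wild type; 1374 are also called in the knockout (red), 797 are not (grey), and the dotted line marks equal change. Points lie along the line, and 2132 have the same sign on both axes.

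Against wild-type cells given α-synuclein fibrils, LPS gave 2718 higher (18.9%) and 2598 lower genes (18.1%). Markers of other cells differed here, with 7 of 11 astrocyte and 8 of 10 fibroblast markers higher in LPS than in fibril libraries, and their part in these counts was not tested. Of 25 immediate early genes 16 were higher with LPS (median 1.85), of 36 cell cycle genes 25 were higher (median 0.99), and of 29 proteasome genes 22 were lower (median -0.35). Kdm6b was higher by 5.75 ± 0.51 and Csrnp1 by 4.36 ± 0.35. Acod1 did not differ detectably (0.11 ± 0.34), nor did Gpr84 (-0.07 ± 0.33). Sod2, the mitochondrial superoxide dismutase, was lower with LPS than with fibrils (-1.23 ± 0.13, adjusted p = 1.04e-07). Against control, LPS raised Sod2 (log2 fold change 1.32, adjusted p = 1.65e-08). It was at 139 to 193 CPM in control and 329 to 529 CPM in LPS libraries. Of 316 Zfp genes, 180 were lower with LPS than with fibrils and 27 higher.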

How the data were processed

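The authors deposited 1 table of estimated counts per transcript for all libraries (expected counts, 94647 transcripts), used here without rounding. Per the submitters' processing notes, CASAVA 1.7.1 and STAR 2.4.2a were used with genome build mm10; the sources used here name neither the counting program nor the annotation. Per the labels' protocols, libraries were stranded, ribosomal RNA-depleted total RNA, read from a single end. Of the transcripts, 91320 matched GENCODE M21 and were summed to genes, and the 3327 others held 0.805% to 0.881% of wild-type counts and were left out. Groups came from the sample titles.

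Gene tests used edgeR 4.0.16 in R 4.3.3 (quasi-likelihood, trimmed-mean scaling, filterByExpr, 14346 genes, 1 mean for each of 6 groups over 30 libraries, Benjamini-Hochberg adjustment, threshold 0.05); transcript use was tested with diffSpliceDGE. limma 3.58.1, DESeq2 1.42.0, other filters and scalings and leaving out libraries were alternatives. Counts were also simulated for 14346 genes, of which 200 were changed. For LPS against control in wild type, 63% of 2-fold and 81% of 4-fold changes were recovered. For the difference in LPS response between genotypes the rates were 46% and 73%. These rates hold for that number of changed genes only. Intervals cover counting error only. Named genes were drawn from the 12 that rose and the 12 that fell most among called genes whose mean log2 CPM was 2 or more. They were also drawn from the called members with the smallest p in every list (at most 3 in each direction). Further sources were receptors and identity genes chosen by name, the ends of a list's range, and genes behind counts of 5 or fewer. Not every gene that met these rules is named, so the genes shown are not always the most changed ones. Rel, Lif, Osm, Nfkbiz, Cxcl10, Cxcl11, Bcl2l11, Pmaip1, Trem2 (for transcript use) and Errfi1 were chosen after their values were seen. The members and lists were chosen with earlier results of these data known.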

Additional observations from a re-analysis of the deposited data

Results flagged for a closer look

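For 40 named genes and 19 lists, each group of 5 or 6 wild-type libraries was searched for 1 library far from the rest, 118 groups of values in all, and chance alone gives about 1 such group in 20. LPS replicate 6 stood apart most often. It was high for Tnfsf9, the 4-1BB ligand (702 CPM against 164 to 277 CPM in the other LPS libraries), for Il1b, the interleukin-1 beta gene (2029 against 998 to 1249 CPM), for Cd14 (1576 against 968 to 1167 CPM) and for the demethylase gene Kdm6b (179.8 against 70.2 to 103 CPM). It was low for Lrrk2 (11.4 against 15.3 to 15.9 CPM), for the mean log2 CPM of the homeostatic microglia genes (5.68 against 5.84 to 5.88) and for that of fibroblast markers (-3.12 against -0.01 to 1.71).

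Control replicate 3 was high for Egr1 (11.8 against 3.37 to 3.96 CPM in the other controls). It was also high for the mean log2 CPM of the 2 tested neutrophil and mast cell markers (-1.25 against -2.52 to -2.32). Control replicate 5 was low for Zfp60 (10.6 against 13.6 to 14.7 CPM). Its mean log2 CPM for T, B and NK cell markers, of which 1 gene was tested, was 1.76 against 1.14 to 1.22. The direction of change between LPS and control libraries is the same with these libraries left out 1 at a time for each of the genes named here that was called.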

How the results depend on the processing

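The number of genes called for LPS in wild type (2171) moved to 3827 with library-size scaling alone (593 higher, 3234 lower) and stayed between 1707 and 2430 under the other alternatives. Leaving out 1 library at a time gave 1707 (without control replicate 1) to 2190. Each alternative called 76.3% to 99.7% of the same genes and none with the opposite sign. The Lrrk2-/- count (1967) fell to 1110 when only the groups compared were fitted, ranged from 1384 to 2225 with 1 library left out, and with library-size scaling was 2835 (517 higher, 2318 lower). No setting called a difference between genotypes. LPS against fibrils (5316) ranged from 4154 to 6523, and transcript use (228) from 160 to 233. Of the values of single genes, 4062 kept their direction and side of the threshold, 152 lost the call, 21 gained it, 27 values of uncalled genes moved, and 1 called value changed sign: Itgb1 was at -0.022 with library-size scaling. The fit without the 3 libraries that stood apart and the one with a marker covariate were chosen after seeing the data.

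Replicate numbers are shared between groups, but nothing states that they pair the samples. Deviations of same-numbered libraries correlated at 0.371, 0.004, 0.123, 0.294 and 0.655 for numbers 1, 2, 3, 5 and 6, and controls 1, 5 and 6 correlated best with their own number. With the replicate number as a block, 2349 genes were called in wild type, 2097 in Lrrk2-/-, 5660 against fibrils and 160 for transcript use. With the numbers of the descriptions, which differ for control replicates 5 and 6, the wild-type count was 2017. Depth limits genes near the count filter, such as Nos2, Il12b and Il23a.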

Other observations

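Several lists were not described above; 7.1% of all genes tested rose. Of 28 lysosome and autophagy genes 4 rose (14.3%), among them the autophagy receptors Optn (log2 fold change 1.25) and Sqstm1 (1.00) and the cathepsin gene Ctsc (0.77). The fourth, Tfe3 (0.41), a lysosomal gene regulator, lost its call without the 3 libraries that stood apart (adjusted p = 0.161). Of 23 unfolded protein and integrated stress response genes 4 rose (17.4%). Ppp1r15a, which restores translation after stress, changed by 2.62, and Trib1, a pseudokinase that targets C/EBP proteins, by 2.17. The others were the endoplasmic reticulum chaperones Hspa5 (0.54) and Dnajb9 (0.51). Of 25 TGF-beta and BMP genes 5 rose (20%) and 1 fell. Id3 (1.91) and Id2 (1.58), inhibitors of basic helix-loop-helix factors, Skil (1.75) and Tgif1 (1.09), repressors of Smad signalling, and Lrrc32 (1.72), which anchors latent TGF-beta, were the members that rose. Acvr1b, an activin receptor, was lower by -0.28 and lost its call without the 3 libraries (adjusted p = 0.0885). The complement receptor genes C5ar1 (0.97) and C3ar1 (0.48) were the 2 called of 17 complement genes.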
